A study of Mus musculus with 6 samples.

Results

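The SOCS family comprises *Cish* and *Socs1* to *Socs7*, which encode feedback inhibitors of cytokine receptor signaling. The 8 genes were taken by name from the 56748 genes listed, and all 8 were among the 14936 genes with enough counts to be tested. They were examined in RNA-seq libraries of murine CD4 T cells cultured under Treg polarizing conditions with an antisense oligonucleotide (ASO), a short synthetic strand that binds a matching RNA. The *Pgam* ASO is directed against phosphoglycerate mutase, an enzyme of glycolysis, and the scrambled ASO is its control, so the comparison addresses what the *Pgam* ASO does to the transcriptome of polarizing cells. Both groups came from wild-type C57BL/6 mice, young adults by the ages in the methods. Naïve CD4 cells were selected by removing other cells, with splenocytes as the source in the labels and both spleen and lymph nodes in the methods. According to the methods they were activated through CD3 and CD28 with IL-2, TGF-β and antibodies neutralizing IFN-γ and IL-4. The ASO was present from the start of culture, and polyA RNA was taken from unsorted cells on day 3, so that each library averages over whatever states the culture held. There were 3 libraries per group, with 17588755, 18032805 and 16231127 counts in replicates 1, 2 and 3 under the scrambled label, against 16589933, 15860476 and 16803881 counts under the *Pgam* label. The sources describe biological replicates without saying which animals they came from, and p-values here measure the spread between these libraries.

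Cytokines such as IL-2, IL-6 and the interferons bind receptors that carry JAK kinases, which phosphorylate STAT transcription factors. STATs in turn induce several SOCS genes, whose proteins bind the receptor or the kinase through an SH2 domain and recruit a ubiquitin ligase through the SOCS box, closing a negative feedback loop. In CD4 T cells, *Cish* and *Socs2* are known as targets of STAT5 downstream of IL-2, *Socs1* restrains interferon and common gamma chain signals, and *Socs3* restrains signals through the IL-6 receptor chain gp130.

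The targeted transcripts were examined first. Expression is given as CPM, a gene's counts relative to the total of its library after TMM scaling, and every fold change sets the *Pgam* label over the scrambled label. *Pgam1* was at 599.6, 478 and 707 CPM in replicates 1, 2 and 3 under the scrambled label, against 658, 661 and 707 CPM under the *Pgam* label. *Pgam2* was at 5.23, 6.75 and 2.85 CPM and at 2.98, 2.69 and 2.60 CPM, respectively. The log2 fold change was 0.18 for *Pgam1* (edgeR's adjusted p = 0.331, quasi-likelihood test with Benjamini-Hochberg correction over all tested genes) and -0.845 for *Pgam2* (adjusted p = 0.0854, same edgeR test). For *Pgam1*, it was 0.047 without replicate 2 labelled scrambled ASO (edgeR's adjusted p = 0.793) and 0.329 without replicate 3 of that label (edgeR's adjusted p = 0.0528). *Pgam2* passed the threshold of 0.05 without replicate 3 labelled scrambled ASO (log2 fold change -1.115, edgeR's adjusted p = 0.0144) and when genes of low count were kept (-0.83, with an adjusted p of 0.0292 in edgeR). It did not pass in the other 5 fits with 1 library left out, and without replicate 2 labelled scrambled ASO its log2 fold change was -0.555 (edgeR's adjusted p = 0.286). Neither transcript passed in the full comparison, so the groups are named by their labels throughout.

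The cells carried the transcripts of CD4 T cells. All 10 genes of a CD4 T cell list were tested, with *Cd4* the most abundant at 718 CPM over all libraries, and 2 of them, *Cd5* and *Cd28*, were lower in the libraries labelled *Pgam* ASO. Of 9 Treg markers, *Il2ra* was higher, and *Foxp3*, *Ikzf2* and *Nrp1* were lower. The 10 CD4 genes summed to 3630, 3815 and 3418 CPM with the scrambled ASO and to 3100, 3094 and 3185 CPM with the *Pgam* ASO, and the 9 Treg genes to 3491, 3285 and 3828 CPM and to 4169, 4191 and 3781 CPM. *Il2ra* was the most abundant of the Treg genes, and the other 8 summed to 1546, 1658 and 1612 CPM with the scrambled ASO and to 1261, 1291 and 1286 CPM with the *Pgam* ASO. The 7 genes of a B cell list summed to 338, 472 and 228 CPM in replicates 1, 2 and 3 under the scrambled label, against 87.3, 122 and 153 CPM under the *Pgam* label, most of it *Ighm*. *Ighm* and *Ighd* were the 2 genes of that list that were lower. Among 5 CD8 T cell genes, led by *Eomes*, *Cd8a* was higher and *Eomes* lower, with sums of 79.9, 62.8 and 91.0 CPM and of 58.7, 49.5 and 50.2 CPM. Lists of NK cells and of mast cells and basophils stayed under 12 CPM in sum and had 2 tested genes each, of which 1 was lower, *Klrd1* (log2 fold change -2.09) and *Kit* (-1.675), with *Klrb1c*, *Klra4* and *Mcpt4* at 0. The other tested gene of each had a positive log2 fold change that did not pass, 0.83 for *Klrk1* (edgeR's adjusted p = 0.0968) and 1.09 for *Cpa3* (edgeR's adjusted p = 0.0526), although *Klrk1* passed without replicate 3 labelled *Pgam* ASO and *Cpa3* without replicate 2 labelled scrambled ASO. Of the 12 marker genes that passed, 3 kept their calls with each library left out, *Cd28*, *Foxp3* and *Ighd*. *Klrd1* lost its call without replicate 2 labelled *Pgam* ASO, *Cd5* and *Kit* without that library or replicate 1 labelled scrambled ASO, and *Cd8a* without replicate 1 of either label. *Il2ra*, *Nrp1* and *Eomes* lost theirs without replicate 1 of either label or replicate 2 labelled *Pgam* ASO, and *Ikzf2* and *Ighm* without replicate 1 or replicate 2 of either label, *Ighm* also with no filter on low counts. The share of counts from mitochondrial genes was 1.95%, 2.12% and 1.93% with the scrambled ASO and 1.24%, 1.44% and 1.32% with the *Pgam* ASO. The libraries of a label also differed among themselves. The root mean square difference in log2 CPM over the tested genes was 0.54 between replicates 2 and 3 labelled scrambled ASO, against 0.524 between replicate 3 labelled scrambled ASO and replicate 3 labelled *Pgam* ASO. The most distant pair was replicate 2 labelled scrambled ASO and replicate 1 labelled *Pgam* ASO, at 0.881. *Foxp3* was at 281.6, 370.6 and 222 CPM in replicates 1, 2 and 3 under the scrambled label, against 89.7, 109 and 131 CPM under the *Pgam* label, and *Ighm* had the same order of libraries, with replicate 2 labelled scrambled ASO highest and replicate 1 labelled *Pgam* ASO lowest. The part of these marker and mitochondrial differences in the results on the SOCS family was not tested.

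Promoter sequences are shown for *Cish*, *Socs1* and *Socs3*, because these are the cytokine-induced members that passed the test between the groups. Sequences were taken from RefSeq on GRCm38.p6, which matched 4 of the 8 members, namely these and *Socs4*. Each runs from 250 bases before to 50 bases after the transcription start, on the strand of the gene. *Cish* is on the plus strand (chr9:107296409-107296708), and *Socs1* (chr16:10785487-10785786) and *Socs3* (chr11:117969317-117969616) are on the minus strand. Capitals mark 2 motifs, searched on both strands, TTCNNNGAA for STAT factors and GAAA followed after any 2 bases by another GAAA for interferon regulatory factors.
Cish: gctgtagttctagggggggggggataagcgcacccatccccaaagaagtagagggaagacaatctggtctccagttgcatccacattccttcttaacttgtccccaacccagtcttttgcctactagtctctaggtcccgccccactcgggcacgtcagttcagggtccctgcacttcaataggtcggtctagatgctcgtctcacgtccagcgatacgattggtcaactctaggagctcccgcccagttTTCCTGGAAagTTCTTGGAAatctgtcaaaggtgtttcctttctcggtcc
Socs1: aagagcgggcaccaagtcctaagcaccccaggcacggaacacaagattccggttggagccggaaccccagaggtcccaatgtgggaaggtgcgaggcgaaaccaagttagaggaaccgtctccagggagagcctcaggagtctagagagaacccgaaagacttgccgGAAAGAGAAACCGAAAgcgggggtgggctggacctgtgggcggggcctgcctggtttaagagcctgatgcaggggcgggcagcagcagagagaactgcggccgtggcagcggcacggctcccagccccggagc
Socs3: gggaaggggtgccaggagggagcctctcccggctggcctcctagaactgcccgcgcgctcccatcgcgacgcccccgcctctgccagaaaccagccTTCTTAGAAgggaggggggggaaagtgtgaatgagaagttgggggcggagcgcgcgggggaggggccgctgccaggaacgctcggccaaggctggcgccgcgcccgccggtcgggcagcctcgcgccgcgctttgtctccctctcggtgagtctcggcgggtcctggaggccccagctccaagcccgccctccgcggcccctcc

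The *Cish* window held 2 matches to the STAT motif, TTCCTGGAA and TTCTTGGAA, at and just after the RefSeq transcription start. The *Socs3* window held 1 match, TTCTTAGAA, 154 bases before its RefSeq start (-154). The GENCODE M21 annotation begins both genes further upstream, *Cish* at 107296026 and *Socs3*, on the minus strand, at 117970047. The positions of these matches therefore hold for the RefSeq starts alone. The *Socs1* window held no STAT match but 2 overlapping matches to the interferon regulatory factor motif, GAAAGAGAAA and GAAACCGAAA. The *Socs4* window held neither motif. Of 32817 promoter windows of the same length, 8.29% held the STAT motif at least once and 0.457% at least 2 times, and 3.43% held the interferon regulatory factor motif at least once and 0.222% at least 2 times. The matches are descriptions of the sequence and were not tested as binding sites.

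Between the groups, 4 of the 8 members had edgeR's adjusted p under 0.05, in both directions. *Cish* and *Socs1* were higher in the libraries labelled *Pgam* ASO, and *Socs3* and *Socs5* were lower. Among all tested genes, 17.2% passed, 8.03% as higher and 9.15% as lower. The libraries of the 2 groups did not overlap for 5 members, the 4 above and *Socs7*, against 39.5% of all tested genes. The median log2 fold change was 0.17 over the 8 members and -0.01 over all tested genes. In bulk RNA, a change in the number of cells that express a gene and a change in RNA per cell cannot be told apart. The count of members rested in part on single libraries. It was 2 without replicate 1 or replicate 2 labelled scrambled ASO or replicate 1 labelled *Pgam* ASO, and 1 without replicate 2 labelled *Pgam* ASO, while the count over all genes went from 2565 to 620, 1256, 871 and 391 in the same order.

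**Figure D1:**
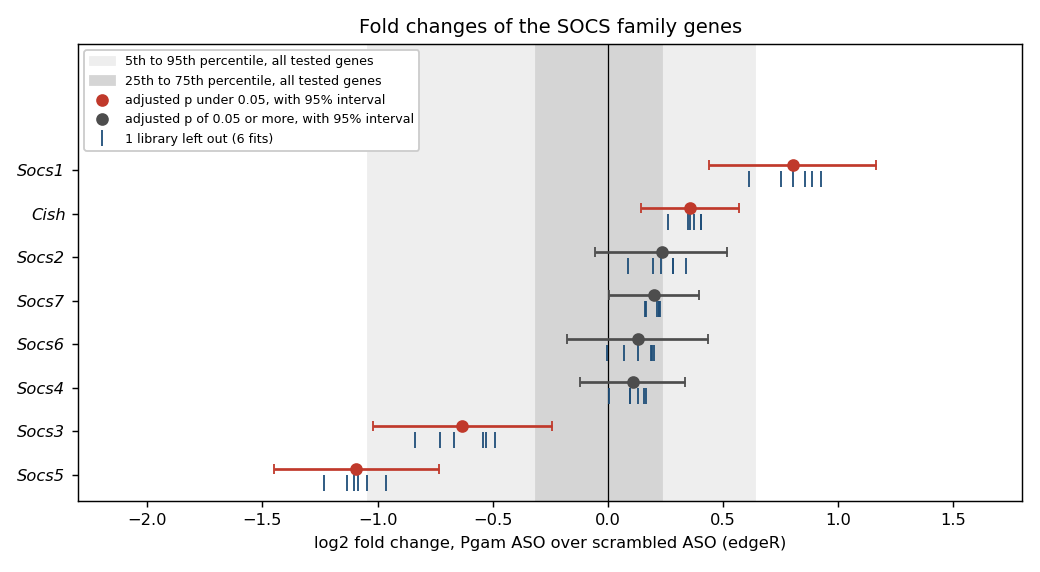
Log2 fold changes of the 8 SOCS family genes from edgeR (x axis, *Pgam* ASO over scrambled ASO, 3 libraries each), with 95% confidence intervals, in red where the adjusted p is under 0.05. Blue ticks give the value with 1 library left out, and shading gives the range of all tested genes; *Socs5* at -1.09 lies below the 5th percentile of -1.04 and *Socs1* at 0.80 above the 95th percentile of 0.64.

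*Cish* encodes CIS, which restrains STAT5 and T cell receptor signaling (ENSMUSG00000032578, chromosome 9 from 107296026 to 107302784 in GENCODE M21 on GRCm38). It was at 383, 309.8 and 380.2 CPM in replicates 1, 2 and 3 under the scrambled label, against 460.2, 447 and 466.5 CPM under the *Pgam* label. Every library labelled *Pgam* ASO was above every library labelled scrambled ASO, and replicate 2 labelled scrambled ASO was the lowest. *Cish* rose 1.28-fold, with a log2 fold change of 0.36 (standard error 0.096, 95% interval 0.14 to 0.57, edgeR's adjusted p = 0.0330, n = 3 per group). The size was ordinary for this comparison, since 37.7% of tested genes had a larger absolute log2 fold change. The call of *Cish* was lost in 5 of the 6 fits with 1 library left out, although the log2 fold change stayed between 0.26 and 0.41. EdgeR's adjusted p was 0.0782 and 0.0588 without replicates 1 and 2 labelled scrambled ASO, and 0.09335, 0.115 and 0.0544 without replicates 1, 2 and 3 labelled *Pgam* ASO.

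*Socs2*, like *Cish* a known target of STAT5 and also a regulator of growth hormone signaling (ENSMUSG00000020027, chromosome 10 from 95385362 to 95417180), did not pass the test. It was at 339.9, 250.1 and 362 CPM with the scrambled ASO and at 349, 393 and 377 CPM with the *Pgam* ASO. The groups overlapped, and replicate 2 labelled scrambled ASO again had the lowest value. The log2 fold change of *Socs2* was 0.23 (95% interval -0.05 to 0.52, adjusted p = 0.228 in edgeR), an interval that includes the estimate for *Cish*. The log2 fold change of *Socs2* was 0.086 without replicate 2 labelled scrambled ASO (edgeR's adjusted p = 0.568) and 0.341 without replicate 3 of that label (edgeR's adjusted p = 0.0838). Whether *Cish* and *Socs2* differed in their response was not tested.

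*Socs1* encodes an inhibitor that blocks JAK kinases directly (ENSMUSG00000038037, chromosome 16 from 10782240 to 10785536). It was at 162, 105 and 169 CPM in replicates 1, 2 and 3 under the scrambled label, against 271, 252.5 and 236.5 CPM under the *Pgam* label. The groups did not overlap, and the order of the libraries was the reverse of that of *Foxp3* and *Ighm*, with replicate 2 labelled scrambled ASO lowest. *Socs1* rose 1.74-fold, with a log2 fold change of 0.80 (standard error 0.16, 95% interval 0.44 to 1.17, edgeR's adjusted p = 0.0147). Of all tested genes, 11.4% had a larger absolute log2 fold change. The call was lost without replicate 2 labelled *Pgam* ASO, where the log2 fold change was still 0.805 but edgeR's adjusted p was 0.0674.

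*Socs3* encodes an inhibitor that binds gp130 and the JAK attached to it (ENSMUSG00000053113, chromosome 11 from 117966079 to 117970047). It was at 96.3, 77.1 and 69.3 CPM in replicates 1, 2 and 3 under the scrambled label, against 44.8, 45.4 and 66.4 CPM under the *Pgam* label. The groups did not overlap, but replicate 3 of each label came close to the other. *Socs3* fell, with a log2 fold change of -0.63 (standard error 0.17, 95% interval -1.02 to -0.24, edgeR's adjusted p = 0.0375), which corresponds to 1.55-fold less. Of all tested genes, 17% had a larger absolute log2 fold change. The call of *Socs3* was lost in 4 of the 6 fits with 1 library left out. Without replicates 1 and 2 labelled scrambled ASO, the log2 fold change was -0.49 and -0.67 with edgeR's adjusted p at 0.117 and 0.116. Without replicates 1 and 2 labelled *Pgam* ASO, it was -0.53 and -0.54 with edgeR's adjusted p at 0.114 and 0.141.

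**Figure D2:**
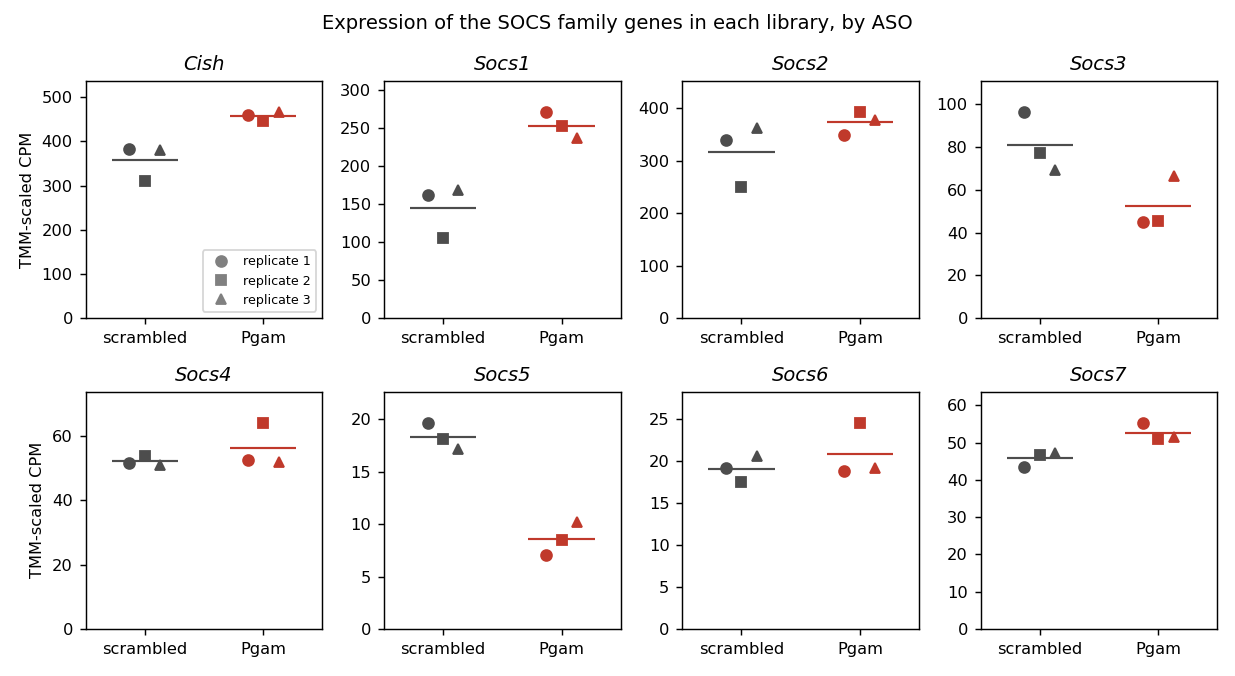
TMM-scaled CPM (y axis, from 0) of each SOCS family gene in the 3 libraries labelled scrambled ASO (grey) and the 3 labelled *Pgam* ASO (red), with the replicate number as the symbol and the mean as a line. The groups are apart for *Cish*, *Socs1*, *Socs3*, *Socs5* and *Socs7*, with the narrowest gap in *Socs3*, from 66.4 to 69.3 CPM.

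*Socs5*, a member with a long N-terminal region that has been tied to IL-4 and growth factor receptors, had the largest absolute change of the family (ENSMUSG00000037104, chromosome 17 from 87107679 to 87137839). It was at 19.7, 18.15 and 17.2 CPM with the scrambled ASO, from 350, 336 and 278 counts. It was at 7.02, 8.53 and 10.2 CPM with the *Pgam* ASO, from 113, 133 and 173 counts. The lowest library labelled scrambled ASO was well above the highest labelled *Pgam* ASO. *Socs5* fell, with a log2 fold change of -1.09 (standard error 0.16, 95% interval -1.45 to -0.73, edgeR's adjusted p = 0.00340), or 2.13-fold less, and 6.17% of tested genes had a larger absolute change. It was the member whose call held in all 6 fits with 1 library left out, with log2 fold changes from -1.23 to -0.96.

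*Socs4*, the closest relative of *Socs5* and linked to EGF receptor turnover, did not pass the test (ENSMUSG00000048379, chromosome 14 from 47276931 to 47296102). It was at 51.4, 53.8 and 51.0 CPM with the scrambled ASO and at 52.4, 64.1 and 52.0 CPM with the *Pgam* ASO. Apart from replicate 2 labelled *Pgam* ASO, the libraries lay within a narrow band. The log2 fold change of *Socs4* was 0.11 (95% interval -0.12 to 0.34, adjusted p = 0.487 in edgeR). The estimate was 0.003 without replicate 2 labelled *Pgam* ASO (edgeR's adjusted p = 0.991) and 0.166 without replicate 3 of that label (edgeR's adjusted p = 0.312).

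*Socs6* and *Socs7*, 2 related members that bind insulin receptor pathway proteins, did not pass either. *Socs6* (ENSMUSG00000056153, from 88665224 to 88927481 on its chromosome) ranged from 17.4 to 20.5 CPM with the scrambled ASO and from 18.8 to 24.5 CPM with the *Pgam* ASO. Its log2 fold change was 0.13 (95% interval -0.18 to 0.43, adjusted p = 0.537 in edgeR), and it was -0.004 without replicate 2 labelled *Pgam* ASO. *Socs7* (ENSMUSG00000038485, chromosome 11 from 97362551 to 97398542) ranged from 43.5 to 47.2 CPM and from 51.0 to 55.3 CPM, respectively, so that its groups did not overlap. The log2 fold change of *Socs7* was 0.20 (95% interval 0.01 to 0.40, adjusted p = 0.133 in edgeR), which did not pass the adjustment over all genes.

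Levels were compared between genes as CPM per kb of transcript, using the mean length of each gene's protein-coding transcripts. With the scrambled ASO, *Socs2* was highest at 240.4 ± 45.0 (SD, n = 3), followed by *Cish* at 179 ± 20.7, *Socs1* at 51.1 ± 12.3, *Socs3* at 31.7 ± 5.43 and *Socs4* at 14.05 ± 0.400 CPM per kb. *Socs6* was at 8.40 ± 0.677, *Socs5* at 6.53 ± 0.444 and *Socs7* at 6.53 ± 0.284 CPM per kb. In that order, the ranges of *Socs2* and *Cish*, of *Socs1* and *Socs3*, and of *Socs5* and *Socs7* overlapped between libraries. With the *Pgam* ASO, *Socs1* stood at 89.0 ± 6.09 and *Socs3* at 20.5 ± 4.82 CPM per kb with no overlap, and *Socs5* was last at 3.06 ± 0.572 CPM per kb. The order depends on the transcript length used, since with the longest transcript of each gene 4 of the 8 kept their place with the scrambled ASO and *Cish* came before *Socs2*.

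**Figure D3:**
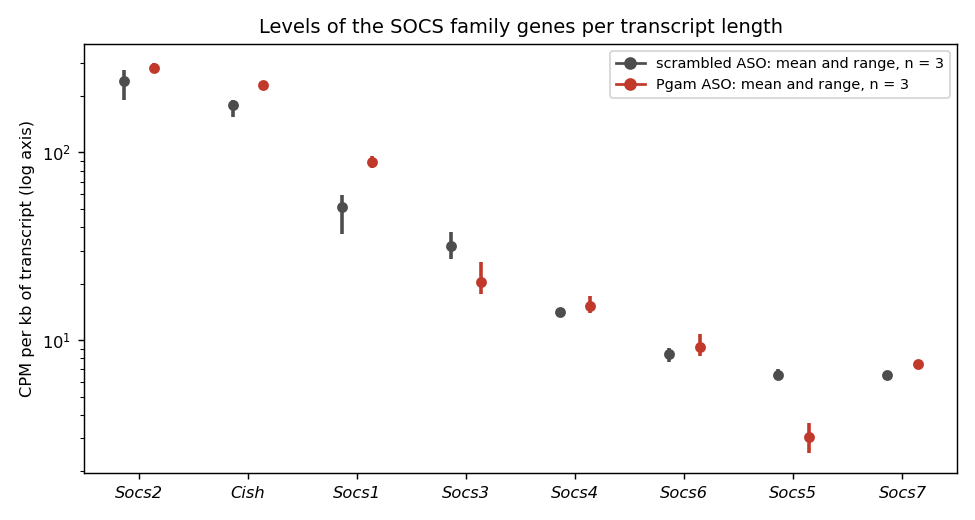
Level of each SOCS family gene in CPM per kb of transcript (y axis, log scale), as the mean (point) and range (bar) of the 3 libraries labelled scrambled ASO (grey) and the 3 labelled *Pgam* ASO (red). Mean levels run from 282.5 CPM per kb for *Socs2* with the *Pgam* ASO to 3.06 CPM per kb for *Socs5* with the *Pgam* ASO.

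*Socs1* and *Socs3*, which moved in opposite directions, were also compared within each library. The ratio of *Socs1* to *Socs3* counts was 1.69, 1.36 and 2.43 in replicates 1, 2 and 3 under the scrambled label, against 6.06, 5.56 and 3.56 under the *Pgam* label. This pair was chosen after its values were seen, so the ratio is a description and has no test. The 8 genes together summed to 1115, 878 and 1117 CPM with the scrambled ASO and to 1258, 1286 and 1280 CPM with the *Pgam* ASO, most of it from *Cish*, *Socs2* and *Socs1*.

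Some members share sequence with other genes, between which Kallisto has to divide reads. Of the 31-base stretches in *Cish* transcripts, 10.4% also occur in other genes, mainly the antisense gene *Gm17041*, which had 0 counts in every library. *Gm17040*, which also overlaps *Cish* on the other strand, had 186 counts over all libraries. The shared portion was 6.55% for *Socs2*, mainly with *Gm9847* (52 counts over all libraries), and 7.38% for *Socs6*, mainly with *Gm9449* (6 counts). It was 0.526% for *Socs4*, 0.0277% for *Socs7* and 0 for *Socs1*, *Socs3* and *Socs5*. *Cish* is uncertain to the extent of its antisense overlap, because strand use in the counting is not given in the sources used here.

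The genes with the most similar profiles over the 6 libraries were found by the root mean square difference of centred log2 CPM among 11863 genes. They were *Pdcl3* (0.0248) and *Suv39h1* (0.0329) for *Cish*, and *Sdf2l1* (0.0474) and *Syt12* (0.0659) for *Socs1*. For *Socs3* they were *Acad12* (0.0878) and *Ubxn11* (0.105), and for *Socs5* they were *Zc3h12d* (0.0909) and *Pak1* (0.0929). The members that did not pass were nearest to *Tceal8* and *Mrps18c* for *Socs2*, *Tbp* and *Ppp6c* for *Socs4*, *Cdcp1* and *Ccnc* for *Socs6*, and *Bckdhb* and *Wbp4* for *Socs7*. Of all these, *Pdcl3*, *Suv39h1*, *Sdf2l1*, *Zc3h12d* and *Pak1* also passed the test in edgeR, and *Zc3h12d* was the 1 that kept its call with each library left out. Profiles were matched on the same 6 libraries, so a near gene has a fold change close to that of its member. These calls are therefore no separate support for those of the members.

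The other genes of the pathway were counted in 6 lists by role, beside the 17.2% of all genes that passed and their median log2 fold change of -0.01. Of 23 cytokine ligands, 12 were tested and 9 of these had a higher level with edgeR's adjusted p under 0.05, with a median log2 fold change of 2.63. Of these, *Il5* had 9, 8 and 9 counts in replicates 1, 2 and 3 under the scrambled label, against 247, 151 and 105 counts under the *Pgam* label. No library labelled scrambled ASO reached the filter's level of 0.599 CPM for *Il5*, so it was tested through the libraries labelled *Pgam* ASO alone and had to differ, and its values are a description. Of the other 11 ligands, 8 rose, with a median of 2.53 over the 11, and 5 passed without replicate 1 labelled scrambled ASO. The largest increases among these were in *Il13* (log2 fold change 3.77) and *Il2* (3.70, from 1.53 to 19.98 CPM on average), of which *Il13* lost its call in edgeR without replicate 1 or replicate 2 labelled scrambled ASO (highest adjusted p = 0.0603). The 3 that did not pass, *Il10*, *Ifng* and *Osm*, had log2 fold changes of 0.38, 1.47 and 0.48, and of these *Ifng* passed without replicate 3 labelled *Pgam* ASO and *Osm* without replicate 3 labelled scrambled ASO.

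Of 34 receptor chains, through which SOCS proteins act, 29 were tested, and 4 rose and 9 fell, with a median of -0.39. Most are cytokine receptor chains, but *Igf1r* and *Insr* encode receptor tyrosine kinases, and both are among the 9 that fell. Among those that passed, *Il10ra* (1.01), *Il4ra* (0.92) and *Il12rb1* (0.56) had the largest increases, and *Ifngr1* (-1.34), *Igf1r* (-1.29) and *Il7r* (-1.09) the largest decreases. Of the IL-6 receptor chains, whose signals *Socs3* restrains, *Il6ra* fell (-0.81, edgeR's adjusted p = 0.0176), and *Il6st*, which encodes gp130, had a log2 fold change of -1.68 that missed the threshold (edgeR's adjusted p = 0.0502). These 2 were singled out after their values were seen. *Il6ra* lost its call without replicate 1 of either label or replicate 2 labelled *Pgam* ASO, and *Il6st* passed without replicate 3 of either label. The count of 13 was 7 without replicate 1 of either label and 3 without replicate 2 labelled *Pgam* ASO. *Il12rb1* and *Ifngr1* lost their calls without replicate 1 or replicate 2 of either label, and *Ifngr1* also with no filter on low counts, *Igf1r* and *Il7r* lost theirs without replicate 2 labelled *Pgam* ASO, and *Il10ra* and *Il4ra* kept theirs in all 6.

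**Figure D4:**
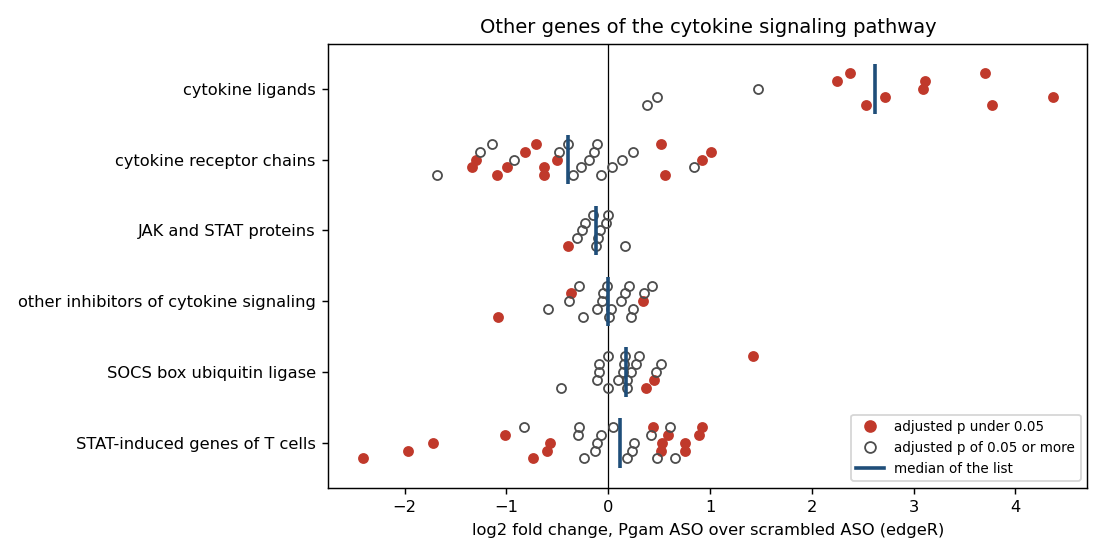
Log2 fold changes from edgeR (x axis, *Pgam* ASO over scrambled ASO, 3 libraries each) of the tested genes in 6 lists of the cytokine signaling pathway, 1 point per gene, filled where the adjusted p is under 0.05, with the median of each list as a blue line. Ligands lie highest, with a median of 2.63 (2.53 without *Il5*), and the median of the JAK and STAT list is -0.12.

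The JAK and STAT proteins, which SOCS proteins inhibit or are induced by, were all 11 tested. *Jak1* fell (-0.39, edgeR's adjusted p = 0.0381), and the median of the list was -0.12. Among the genes of the list that did not pass, log2 fold changes were -0.145 for *Jak2*, -0.23 for *Jak3*, -0.02 for *Tyk2*, 0.165 for *Stat2*, -0.08 for *Stat3*, -0.31 for *Stat4*, 0.00 for *Stat5a*, -0.26 for *Stat5b* and -0.12 for *Stat6*. The call of *Jak1* was lost without replicate 1 or replicate 2 of either label (highest adjusted p in edgeR 0.135). Without replicate 3 labelled scrambled ASO 3 genes of the list passed, and without replicate 3 labelled *Pgam* ASO 2 did.

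Of 20 other inhibitors of cytokine signaling, 3 passed and the median was 0.00. The phosphatase gene *Ptpn1* rose (0.345), and the ubiquitin ligase gene *Cblb* (-1.08) and the adaptor gene *Sla* (-0.365) fell. *Cblb* was the 1 of these that kept its call with each library left out. Of 22 genes of the ubiquitin ligase that the SOCS box recruits and of other SOCS box proteins, 20 were tested and 3 rose, with a median of 0.18. These were *Asb2* (1.42), a SOCS box protein of another family, *Ube2m* (0.45) and *Rbx1* (0.37), of which *Asb2* kept its call with each library left out. Without replicate 1 or replicate 2 of either label, 1 gene passed in each of these 2 lists. Without replicate 3 labelled scrambled ASO, 8 other inhibitors and 5 ligase genes passed, and without replicate 3 labelled *Pgam* ASO 5 other inhibitors did.

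Of 30 genes that STAT factors are known to induce in T cells, all were tested, 8 rose and 7 fell, with a median of 0.12. Among those that passed, *Il4ra* (0.92), *Gata3* (0.89) and *Batf* (0.75) had the largest increases, and *Gbp2* (-2.41), *Bcl6* (-1.97) and *Gbp3* (-1.72), 2 of them interferon-induced GTPases, the largest decreases. The count of 15 was 8 without replicate 1 labelled scrambled ASO and 6 without replicate 2 labelled *Pgam* ASO. *Il4ra*, *Gbp2* and *Gbp3* kept their calls with each library left out, whereas *Batf* lost its call without replicate 2 labelled *Pgam* ASO, *Gata3* without that library or replicate 1 of either label, and *Bcl6* without replicate 1 or replicate 2 of either label.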

How the data were processed

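For each library the authors deposited estimated counts, 1 whole number per Ensembl gene with no scaling, and the submitters' processing notes name Kallisto and GRCm38. The Kallisto version, the annotation and the use of strand are not given in the sources used here. Symbols were matched for 52073 of 56748 genes, coordinates and transcript lengths came from GENCODE M21, and promoters came from RefSeq. Labels gave the groups, and the number of columns not used was 0.

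The edgeR 4.0.16 package in R 4.3.3 was run with filterByExpr at its defaults, TMM scaling and the robust quasi-likelihood test (two-sided). P-values were adjusted by the Benjamini-Hochberg method over the 14936 genes tested, with 0.05 as the threshold. Depth ran from 15860476 to 18032805 counts, and the procedure was first tested on simulated data. Alternatives tried were DESeq2 1.42.0, voom in limma 3.58.1, scaling by RLE or by library size, scaling after removal of ribosomal and mitochondrial genes, keeping genes with at least 1 count or with 10 in all libraries, a replicate block, a threshold of 0.01, leaving out single libraries, and the longest transcript as the length.

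The genes named were the 8 members, *Pgam1* and *Pgam2*, from each pathway list the 3 called genes with the largest increase and the 3 with the largest decrease, the JAK and STAT genes, and the 2 nearest profiles of each member (log2 CPM with a prior count of 2). *Il6ra*, *Il6st*, *Il10*, *Ifng*, *Osm* and single genes of the marker lists were picked once their values were known, as were the ligand count without *Il5* and the Treg sum without *Il2ra*. The members and lists were chosen with earlier results of these data known. Some genes of the lists are counted but are not reported here singly.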

Additional observations from a re-analysis of the deposited data

How the results depend on the processing

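Of 112 log2 fold changes of the 8 members under 8 other settings on all libraries and with each of 6 libraries left out, 111 kept their sign, and the exception was *Socs6* without replicate 2 labelled *Pgam* ASO (-0.004). *Socs1* and *Socs5* passed the threshold of 0.05 in each of these settings on all 6 libraries, and *Cish* and *Socs3* under each but the replicate block, where their log2 fold changes were 0.363 and -0.643. With 1 library left out, values ran from 0.262 to 0.406 for *Cish*, from 0.613 to 0.925 for *Socs1*, from -0.837 to -0.492 for *Socs3* and from -0.004 to 0.202 for *Socs6*. The replicate block called 1235 genes, 2 members, 1 other inhibitor, 1 SOCS box ligase gene and 0 JAK and STAT genes. Deviations from the group means correlated across genes at 0.0534, -0.034 and -0.237 for replicate numbers 1, 2 and 3. The mean correlation was -0.0724 for equal and 0.0364 for different numbers. Deviations of 3 libraries from their own group mean are tied to each other, so these values cannot decide whether equal numbers were paired. The sources do not say, and why calls were lost under the block was not tested. An adjusted p under 0.01 in edgeR left 453 genes, 1 member, 5 of the 11 ligands other than *Il5*, 4 receptor chains, 0 JAK and STAT genes, 1 other inhibitor, 1 SOCS box ligase gene and 7 STAT-induced genes, by the stricter threshold itself. DESeq2 called 5 other inhibitors, library size alone called 2 JAK and STAT genes, and no filter on low counts gave 7 other inhibitors and 6 SOCS box ligase genes, and the cause was not tested. With 1 library left out, calls ran from 391 to 3484 genes, from 1 to 4 members, from 5 to 9 of the 11 ligands other than *Il5*, from 3 to 16 receptor chains, from 0 to 3 JAK and STAT genes, from 1 to 8 other inhibitors, from 1 to 5 SOCS box ligase genes and from 6 to 18 STAT-induced genes. Ranks of level per length were kept by 4 of 8 members with the longest transcript. Near 0, *Stat5a* changed sign with limma-voom (-0.007), library size alone (-0.036), at least 10 counts in every library (-0.011) and the replicate block (-0.007), and with 1 library left out it ran from -0.119 to 0.064, *Tyk2* from -0.073 to 0.032 and *Tbp* from -0.017 to 0.137. Of 38 other named genes that passed, not counting *Il5*, 11 passed with each library left out and 25 under the block. Among named genes that did not pass, *Il6st* passed in 4 of the 8 other settings on all libraries, *Cpa3* in 3, *Osm* and *Ubxn11* in 2, and *Klrk1*, *Pgam2* and *Stat5b* in 1. With 1 library left out, *Il10* ran from 0.155 to 0.655, *Ifng* from 0.889 to 1.816, *Osm* from 0.299 to 0.608 and *Klrk1* from 0.477 to 1.096. *Il5* has no value with at least 10 counts in every library, because that filter removes it. The lowest count of any member in a library was 113, for *Socs5*.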
